A study of Mus musculus with 45 samples.

Results

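Inflammatory monocytes (iMo) were compared with interstitial macrophages (IM) from mouse lung before any lipopolysaccharide (LPS) was given. The comparison rests on 4 libraries of the 45 in the series, 2 of iMo and 2 of IM, chosen by their titles: cell type, 0h, and a numeric title code, which all 4 share. Each cell type has a library A and a library B, and paired values below are given in that order. The cells were purified from the lungs of C57BL/6J mice by flow cytometry, and polyadenylated RNA was sequenced from low input with a modified Smart-seq2 protocol. None of the 4 was treated with LPS, and the labels name no genotype beyond the strain. For the age of the mice, the gates of the sort and the number of animals behind a library, nothing is given in the sources used here. The labels do not say that A and B are separate animals, so a p-value speaks only to a spread among libraries, which may be technical. That spread is not the one between A and B of these 4 alone, but is shared with the other groups named next.

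The groups read beside this comparison were 4 libraries of alveolar macrophages (AM) at 0h, 3 with that title code and 1 with another, and IM and iMo at 2, 6 and 20h after intraperitoneal LPS, 2 libraries in each group. The hours are those of the sample labels; the design text of the series has 22h as its last time. The fit also held AM at 2, 6 and 20h after intraperitoneal LPS, with 2, 3 and 2 libraries. In all, 27 libraries of 12 groups shared 1 estimate of the spread for each gene. The SE of a gene at 0h thus also reflects its spread in AM and after LPS.

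Inflammatory monocytes are short-lived cells that arrive from the blood, carry Ly6C and CCR2, and can turn into macrophages or dendritic cells in tissue. Interstitial macrophages live in the lung wall around bronchi, vessels and nerves, where they take up dying cells, present antigen and release chemokines. Macrophages of tissues usually make the 3 chains of C1q, the first component of the classical complement pathway, while granule proteases such as proteinase 3 mark young myeloid cells.

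Levels are in TPM, a measure of transcripts that relates each gene to the total of its library and corrects for gene length. The columns summed to 461029 and 454465 TPM in IM and to 506430 and 551635 TPM in iMo, below the sum that TPM has over a complete library, and both iMo sums lay above both IM sums. The values were used as deposited, and the part of these sums in the differences was not tested beyond the other scalings tried. Between 6496 and 6905 genes had at least 5 TPM, with both IM libraries above both iMo libraries. Read depth is not kept in TPM. Across genes, Pearson r of log2(TPM+1) was 0.947 between the IM libraries, 0.961 between the iMo libraries and 0.842 to 0.893 between cell types.

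Differences are log2(TPM+1) of iMo minus IM, relative to the median of 0.15 over the 8937 genes tested. Each adjusted p comes from limma's moderated t test, adjusted by Benjamini-Hochberg over these genes. They refer to the values before that median was subtracted. A gene is called higher or lower in iMo where the adjusted p was under 0.05. The scale understates changes of low genes. In bulk samples such as these, fewer cells of a type and less RNA per cell cannot be told apart.

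Far more genes were lower than higher in iMo. Of the genes tested, 66 were called higher in iMo, 0.739%, and 565 were called lower, 6.32%. The lower genes were also further apart: their median difference was -2.56, and 410 of them were at least 4-fold and 61 at least 16-fold from the median gene. The 66 higher genes had a median of 1.25, with 3 at least 4-fold and 0 at least 16-fold away. In 19 of the lower genes both iMo libraries were listed at 0. The iMo libraries did not overlap the IM libraries in all 66 higher and all 565 lower genes, and in 5225 of the 8937 tested. The totals depended on the libraries. Without iMo A, 15 genes were called higher and 363 lower, without IM A 26 and 412, without IM B 50 and 450, and without iMo B 30 and 508. The share of calls that were higher in iMo was 10.5% here, 36.5% with quantile normalization, 24.2% with the 4 libraries alone, 39.0% with the 4 libraries and a term for the letter, 22.2% with a term for the title code and 32.9% with array weights.

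**Figure D1:**
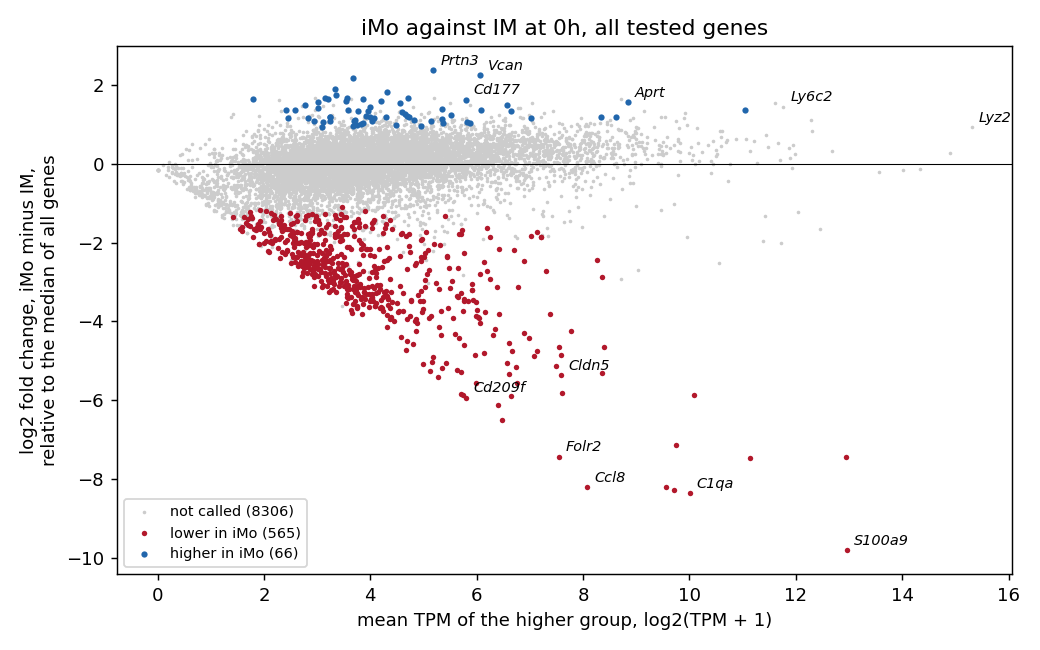
Each point is 1 of the 8937 genes tested, with the log2(TPM+1) of the mean TPM of the higher cell type on the x axis and the log2 difference iMo minus IM, relative to the median of all genes, on the y axis. Blue points are the 66 genes called higher and red points the 565 called lower in iMo, and the red points reach further from the zero line; genes listed at 0 in both iMo libraries are drawn at a difference that depends on the 1 TPM added.

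Prtn3, Vcan, C1qa and Ccl8 marked the 2 cell types. Prtn3 encodes proteinase 3, a serine protease of myeloid granules, and stood at 40.1 and 30.3 TPM in iMo against 6.32 and 4.26 TPM in IM (log2 difference 2.38, SE 0.42, adjusted p = 0.000173). Vcan encodes versican, a matrix proteoglycan of classical monocytes, and stood at 100.2 and 32.1 TPM in iMo against 19.1 and 5.00 TPM in IM (log2 difference 2.25, SE 0.47, adjusted p = 0.000982). In both genes the iMo libraries lay above the IM libraries, with the nearest pair of Vcan at 32.1 and 19.1 TPM. The Vcan call was lost without IM B or iMo A (adjusted p = 0.0812 to 0.101).

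C1qa encodes the A chain of C1q and stood at 1077 and 973 TPM in IM against 2.85 and 2.05 TPM in iMo (log2 difference -8.37, SE 1.16, adjusted p = 2.58e-05). Ccl8 encodes a chemokine ligand of the monocyte chemoattractant group and stood at 308 and 231 TPM in IM, and was listed at 0 in both iMo libraries (adjusted p = 9.58e-09). The groups were far apart in both genes. In the 4 AM libraries C1qa ran from 0 to 6.83 TPM, Ccl8 from 0 to 1.12 TPM, Prtn3 from 0 to 0.130 TPM and Vcan from 0.165 to 0.365 TPM, so that AM was low in all 4 genes.

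**Figure D2:**
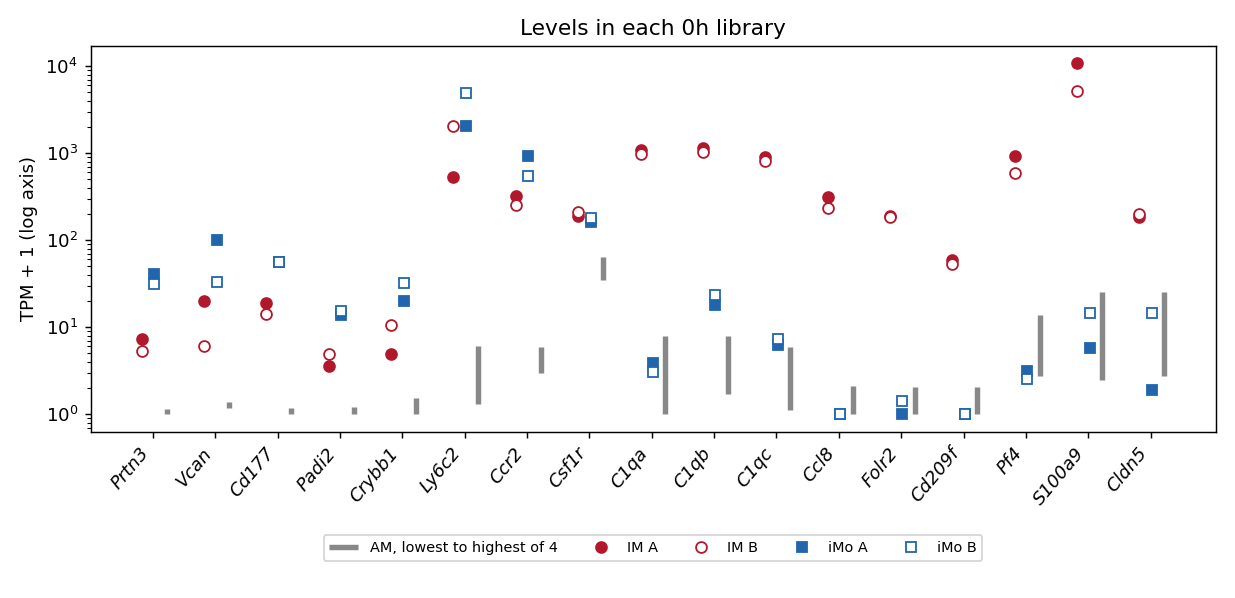
Levels of 17 genes at 0h, as TPM plus 1 on a log axis, with 1 symbol for each IM library (circles) and iMo library (squares), filled for A and open for B, and a grey bar from the lowest to the highest of the 4 AM libraries. C1qa at 1077 and 973 TPM and Ccl8 at 308 and 231 TPM are high in IM alone, Prtn3 at 40.1 and 30.3 TPM is high in iMo, and the symbols of Ly6c2 meet.

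Members of 2 gene clusters differed together, and the stretch before the start of some of these genes is shown for that reason. C1qa (chr4:136895916-136898844), C1qb (chr4:136880126-136886200) and C1qc (chr4:136889801-136892936) are neighbours. Ccl12 (chr11:82101845-82103399) and Ccl8 (chr11:82115185-82116799) lie close to each other, downstream of Ccl2 (chr11:82035577-82037452), which was not called, and of Ccl7 (chr11:82045712-82047525). Prtn3 (chr10:79879667-79883174), higher in iMo, is set beside them. The sequences are the 250 bases before an annotated transcript start, 5′ to 3′ on the gene's strand, from RefSeq for GRCm38.p6. That start is the outer end of the gene for Prtn3, C1qb, Ccl8 and Ccl12, and lies 22 bases inside it for C1qc, at position 136892914. They cover chr10:79879417-79879666 on the plus strand for Prtn3, chr4:136886201-136886450 and chr4:136892915-136893164 on the minus strand, and chr11:82114935-82115184 and chr11:82101595-82101844 on the plus strand. Capitals mark matches to 4 motifs searched on both strands.
Prtn3: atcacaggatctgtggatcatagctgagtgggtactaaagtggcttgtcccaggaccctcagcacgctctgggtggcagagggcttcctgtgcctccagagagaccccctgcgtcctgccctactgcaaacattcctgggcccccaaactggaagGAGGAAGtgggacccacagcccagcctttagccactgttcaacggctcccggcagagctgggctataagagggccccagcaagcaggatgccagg
C1qb: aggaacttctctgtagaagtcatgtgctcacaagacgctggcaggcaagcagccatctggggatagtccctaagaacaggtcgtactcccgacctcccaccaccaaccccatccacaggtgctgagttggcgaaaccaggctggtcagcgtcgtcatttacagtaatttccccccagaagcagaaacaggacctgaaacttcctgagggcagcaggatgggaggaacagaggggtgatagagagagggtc
C1qc: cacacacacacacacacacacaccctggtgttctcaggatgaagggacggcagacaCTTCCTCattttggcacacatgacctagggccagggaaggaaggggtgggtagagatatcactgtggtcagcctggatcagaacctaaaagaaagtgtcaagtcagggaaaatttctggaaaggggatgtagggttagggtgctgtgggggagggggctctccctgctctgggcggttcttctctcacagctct
Ccl8: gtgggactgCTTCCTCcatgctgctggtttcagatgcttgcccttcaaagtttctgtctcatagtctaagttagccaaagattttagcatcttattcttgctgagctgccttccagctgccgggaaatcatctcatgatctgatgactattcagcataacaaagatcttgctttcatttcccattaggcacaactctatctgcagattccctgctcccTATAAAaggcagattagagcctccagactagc
Ccl12: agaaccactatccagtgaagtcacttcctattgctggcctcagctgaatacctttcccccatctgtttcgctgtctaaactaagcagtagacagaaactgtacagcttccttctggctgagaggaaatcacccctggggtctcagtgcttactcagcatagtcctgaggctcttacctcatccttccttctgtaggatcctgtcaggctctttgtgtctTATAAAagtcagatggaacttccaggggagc

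The motif GAGGAAG, used here for sites of PU.1, a master factor of myeloid cells, was found in 10.6% of the 32851 windows of this length. It was at -95 to -89 from the start of Prtn3 on the gene's strand, and on the opposite strand, as CTTCCTC, at -194 to -188 of C1qc and -241 to -235 of Ccl8. TATAAA, the TATA box, was in 12.4% of windows, at -32 to -27 of Ccl8 and -31 to -26 of Ccl12. Neither TGCTGAC, a site of MAF factors (3.81% of windows), nor TTGCNNAA, a core of C/EBP factors (9.56%), was in these 5 windows, and C1qb held none of the 4. No motif overlapped another. Shorter forms of the motifs were not searched, so a window without a match may hold them. A match describes these letters and is no measure of binding.

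Genes higher in iMo were mostly of moderate level and moderate difference. After Prtn3 and Vcan, the largest differences were in Kcne3, a potassium channel subunit, at 12.5 and 10.98 TPM in iMo against 0.573 and 3.09 TPM in IM (log2 difference 2.18, SE 0.53, adjusted p = 0.00511), and Dna2, a nuclease and helicase of DNA replication, at 19.6 and 17.9 TPM in iMo against 2.79 and 5.73 TPM in IM (log2 difference 1.82, SE 0.39, adjusted p = 0.00109). Mrps18b, of the mitochondrial ribosome, stood at 12.6 and 9.06 TPM in iMo against 2.04 and 2.62 TPM in IM (log2 difference 1.67, SE 0.48, adjusted p = 0.0165). Both iMo libraries lay above both IM libraries in each, as the rule for naming these genes required. The call was lost for Kcne3 without IM A or iMo A (adjusted p = 0.0634 to 0.199), for Dna2 without IM A (adjusted p = 0.0587), and for Mrps18b without IM A, IM B or iMo A (adjusted p = 0.0597 to 0.199).

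Padi2, a peptidylarginine deiminase that converts arginine to citrulline, was at 12.8 and 14.3 TPM in iMo against 2.57 and 3.96 TPM in IM (log2 difference 1.64, SE 0.34, adjusted p = 0.000743). Cd177, a surface protein best known from neutrophils, was at 54.6 and 55.4 TPM in iMo against 18.1 and 13.1 TPM in IM (log2 difference 1.63, SE 0.36, adjusted p = 0.00145). Prtn3, Padi2 and Cd177 were the only 3 of the 15 largest differences in this direction that stayed called in every alternative in which they were tested, 18 for Prtn3 and Cd177 and 17 for Padi2, which the filter of 20 TPM removed. Without IM A 11 of the 15 lost their call, without IM B 7, without iMo A 8 and without iMo B 6.

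Enzymes and an adaptor of DNA sensing were among the other genes in the top 15. Aprt, which salvages adenine, was at 381 and 531 TPM in iMo against 131 and 143 TPM in IM (log2 difference 1.56, SE 0.45, adjusted p = 0.0156). Tmem173, the STING adaptor of cytosolic DNA sensing, was at 99.97 and 87.2 TPM in iMo against 23.2 and 36.8 TPM in IM (log2 difference 1.49, SE 0.50, adjusted p = 0.0447). Cers6, a ceramide synthase, was at 44.6 and 35.2 TPM in iMo against 11.4 and 14.6 TPM in IM (log2 difference 1.40, SE 0.34, adjusted p = 0.00369). The call was lost for Aprt without IM A, IM B or iMo B (adjusted p = 0.0711 to 0.172), for Tmem173 without IM A, IM B, iMo A or iMo B (adjusted p = 0.0653 to 0.399) and for Cers6 without IM A or iMo A (adjusted p = 0.075 to 0.0832). Crybb1, a beta crystallin, was at 18.9 and 31.3 TPM in iMo against 3.91 and 9.65 TPM in IM (1.66, adjusted p = 0.00287), and lost its call without IM A or iMo B (adjusted p = 0.086 to 0.155). Rspo1, an activator of Wnt signalling, was at 12.1 and 22.7 TPM in iMo against 1.67 and 9.31 TPM in IM (1.60, adjusted p = 0.0268), and lost its call without IM A or iMo B (adjusted p = 0.316 to 0.706). Bex6, Cd300lg and Msantd3 had differences of 1.60, 1.55 and 1.43. Bex6 lost its call without IM A, IM B or iMo A (adjusted p = 0.123 to 0.369), Cd300lg without IM A, IM B, iMo A or iMo B (adjusted p = 0.146 to 0.197) and Msantd3 without IM A, IM B, iMo A or iMo B (adjusted p = 0.0625 to 0.288).

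Of 11 classical monocyte markers tested, 1 was called higher, Vcan (9.09%, against 0.739% of all genes), and 0 lower. All 11 had a positive difference relative to the median gene, with a list median of 1.18. The same 11 were higher in iMo A than in IM A and higher in iMo B than in IM B. F13a1, a subunit of clotting factor XIII, was at 582 and 253 TPM in iMo against 139 and 86.7 TPM in IM (1.65, adjusted p = 0.117). Ifitm6 was at 1010.2 and 909 TPM in iMo against 306 and 410.4 TPM in IM (1.29, adjusted p = 0.406). IM thus held clear levels of both genes before LPS, against 0.194 to 2.12 TPM of F13a1 and 0 to 3.81 TPM of Ifitm6 in AM. Over the alternatives the number called ran from 0 to 11, with the highest number from the 4 libraries alone with a term for the letter; it was 0 without IM B and 0 without iMo A.

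Of the 6 genes of immature myeloid granules, 2 could be tested and Prtn3 was called. Elane, neutrophil elastase and the neighbour of Prtn3 on chr10, was at 0.671 and 0.484 TPM in iMo against 0 and 0 TPM in IM (0.51, adjusted p = 0.564). Mpo, Ctsg, Ms4a3 and Prss57 did not reach the filter of 5 TPM in 2 of the 27 libraries, and their highest level in these 4 libraries was 1.50 TPM. The level of Prtn3 therefore stood apart from the other granule genes of this list.

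Of 9 nonclassical monocyte markers, 2 were called lower (22.2%, against 6.32% of all genes) and 0 higher (median -0.23). These were Ace, angiotensin-converting enzyme, at 61.7 and 88.8 TPM in IM against 14.5 and 32.6 TPM in iMo (log2 difference -1.86, SE 0.45, adjusted p = 0.0167), and Eno3, an enolase, at 15.9 and 24.5 TPM in IM against 7.38 and 5.32 TPM in iMo (log2 difference -1.66, SE 0.45, adjusted p = 0.0377). The count was 1 without IM A, 0 without IM B, 0 without iMo A and 1 without iMo B. Nr4a1, the nuclear receptor that nonclassical monocytes need, was at 34.2 and 38.7 TPM in IM against 33.8 and 34.4 TPM in iMo (-0.24, adjusted p = 0.934). Its 4 libraries overlapped.

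Of 13 genes used to sort such cells or shared by phagocytes, 1 was called lower (7.69%) and 0 higher, a share near the 6.32% of all genes. Ly6c2, which encodes Ly6C, was at 531 and 2048 TPM in IM against 2046 and 4892 TPM in iMo (log2 difference 1.45, SE 0.81, adjusted p = 0.331), and IM B was level with iMo A. Ccr2, the receptor that draws monocytes out of bone marrow, was at 323 and 251 TPM in IM against 931 and 549 TPM in iMo (log2 difference 1.18, SE 0.67, adjusted p = 0.338), with no overlap. Ccr2 was called higher with the title code as a term (adjusted p = 0.0254). With a term for letter and code together, over the 27 libraries, both genes were called higher (adjusted p = 0.0164 for Ly6c2 and 0.00973 for Ccr2). Against AM, both cell types were high in Ly6c2, which ran from 0.305 to 5.01 TPM there, and in Ccr2, at 1.95 to 4.85 TPM. Mertk, a receptor for dying cells often used to gate macrophages, was the gene called. It stood at 10.6 and 14.9 TPM in IM against 1.24 and 1.09 TPM in iMo (log2 difference -2.80, SE 0.39, adjusted p = 4.28e-05), and at 51.5 to 86.4 TPM in AM.

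The other genes of this list did not pass the test. Csf1r, the M-CSF receptor, was at 186 and 209.9 against 162 and 179 TPM (-0.36, adjusted p = 0.864). Adgre1, which encodes F4/80, was at 57.8 and 68.6 against 55.8 and 50.02 TPM (-0.40, adjusted p = 0.867). Lyz2, lysozyme, was the most abundant gene of the list at 18356 and 20011 against 42397 and 38457 TPM (0.93, adjusted p = 0.324), IM given first in each. Itgam (0.34, adjusted p = 0.823), Cd68 (0.18, adjusted p = 0.775), Ptprc (0.55, adjusted p = 0.563), Cd14 (-0.99, adjusted p = 0.419), Fcgr1 (0.65, adjusted p = 0.317), Cx3cr1 (0.05, adjusted p = 0.9) and Siglecf (-1.61, adjusted p = 0.187) were also not called. Siglecf was at most 4.22 TPM in these libraries against 69.9 to 228 TPM in AM.

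Of 26 interstitial macrophage markers, 18 were called lower in iMo (69.2%, against 6.32% of all genes) and 0 higher, with a median of -3.77. Over the 18 alternatives 17 to 21 were called lower, and 25 of the 26 were lower in iMo in both letters. Folr2, the folate receptor of resident macrophages, was at 186 and 185 TPM in IM against 0 and 0.411 TPM in iMo (log2 difference -7.44, SE 0.82, adjusted p = 1.76e-06). Lyve1, a hyaluronan receptor of macrophages along vessels, was at 107 and 105 TPM in IM against 0.943 and 4.59 TPM in iMo (log2 difference -5.17, SE 0.65, adjusted p = 9.17e-06). Fcrls, an Fc receptor-like scavenger gene, was at 127 and 71.6 TPM in IM against 1.24 and 0.446 TPM in iMo (log2 difference -5.89, SE 0.51, adjusted p = 4.94e-08). The highest iMo level of these 3 genes was 4.59 TPM, and the lowest IM level 71.6 TPM.

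Among the 8 markers that were not called, Maf, a transcription factor of tissue macrophages, was at 55.4 and 36.7 TPM in IM against 22.4 and 12.98 TPM in iMo (-1.50, adjusted p = 0.217). Apoe, apolipoprotein E, was at 3148 and 2329 TPM in IM against 1200.3 and 1199.9 TPM in iMo (-1.32, adjusted p = 0.712), high in both. Cx3cr1, Trem2, Aif1, Selenop and Tmem119 were not called either, with Cx3cr1, the fractalkine receptor, at 56.2 and 55.97 against 75.5 and 54.5 TPM and Trem2, a lipid receptor, at 79.4 and 70.5 against 55.97 and 54.6 TPM. Some of these genes were thus high in both cell types, and others were near 0 in iMo.

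Markers of other cells were higher in IM in the same libraries. Neutrophil markers summed to 22708 and 11299.5 TPM in IM and to 129.7 and 87.4 TPM in iMo, endothelial markers to 564 and 769 TPM in IM and to 10.7 and 57.3 TPM in iMo, and fibroblast and smooth muscle markers to 548 and 548 TPM in IM and to 17.4 and 26.2 TPM in iMo. Their part in the counts of lower genes was not tested. Single lists of such markers are given further on.

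**Figure D3:**
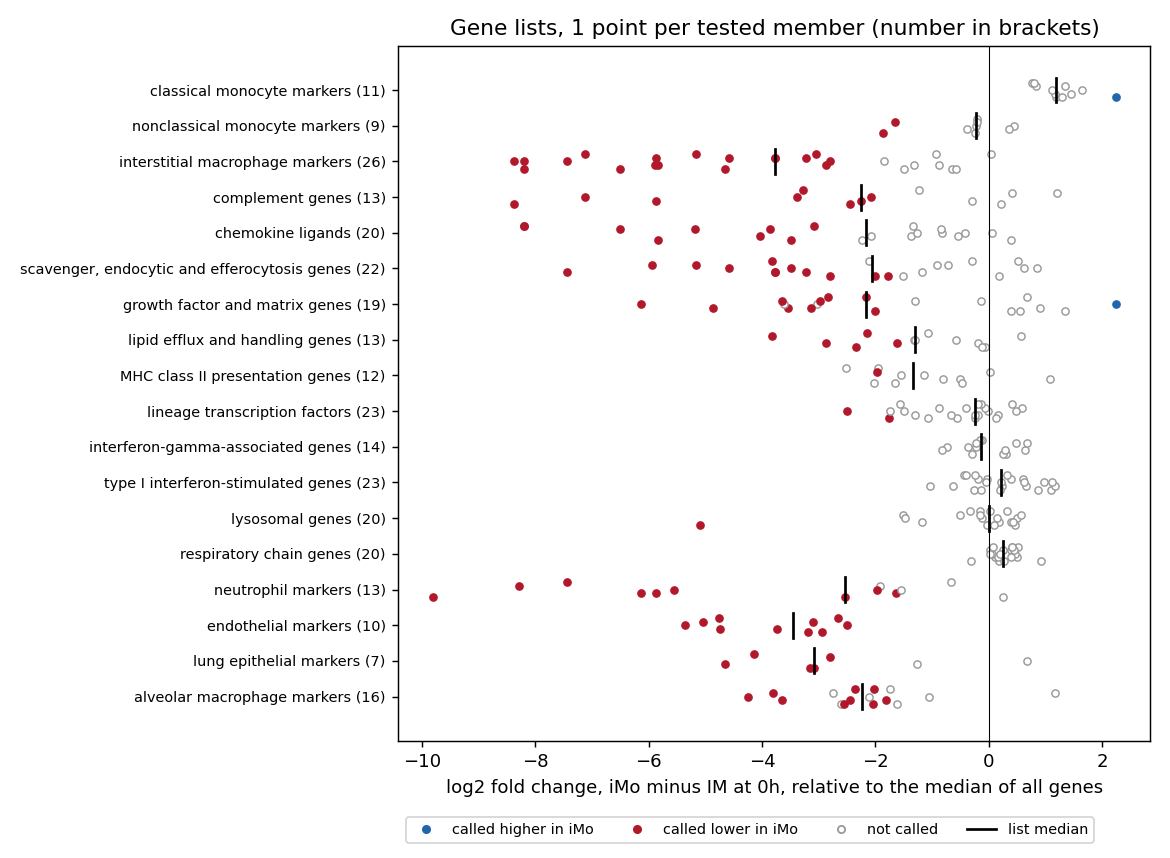
Each point is a tested member of the gene list named on the y axis, with its log2 difference iMo minus IM at 0h, relative to the median of all genes, on the x axis, red where called lower, blue where called higher and open where not called; black bars are list medians. Of the interstitial macrophage markers (18 of 26 called) 25 lie to the left of the zero line, as do all 10 endothelial markers, and the 11 classical monocyte markers lie to the right; members listed at 0 in both iMo libraries are drawn at a difference that depends on the 1 TPM added.

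Complement genes were lower in iMo at the level of C1q, its inhibitor and anaphylatoxin receptors. Of 13 tested, 8 were called lower (61.5%, against 6.32% of all genes) and 0 higher (median -2.26). Besides C1qa, C1qc was at 906 and 807 TPM in IM against 5.26 and 6.31 TPM in iMo (log2 difference -7.13, SE 1.24, adjusted p = 0.000306) and C1qb at 1133 and 1035 TPM in IM against 16.8 and 22.6 TPM in iMo (log2 difference -5.87, SE 1.21, adjusted p = 0.00215). Serping1, the inhibitor of C1 proteases, was at 13.02 and 13.6 TPM in IM against 0.339 and 0.732 TPM in iMo (log2 difference -3.38, SE 0.55, adjusted p = 0.000224). The iMo libraries lay far below the IM libraries in all 3 C1q chains. C4b was at 10.1 and 6.90 TPM in IM against 0 and 2.64 TPM in iMo (-2.44, adjusted p = 0.000543), and Cd55, which breaks down complement convertases on the cell surface, at 5.13 and 7.44 TPM in IM against 0.486 and 1.40 TPM in iMo (-2.07, adjusted p = 0.000616).

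C5ar1, the receptor for C5a, was at 63.9 and 42.1 TPM in IM against 20.1 and 6.09 TPM in iMo (log2 difference -2.26, SE 0.45, adjusted p = 0.00248), and C3ar1, the receptor for C3a, at 27.4 and 19.8 TPM in IM against 3.00 and 0.925 TPM in iMo (log2 difference -3.28, SE 0.93, adjusted p = 0.0386). The C5ar1 call was lost without IM A or iMo B (adjusted p = 0.0693 to 0.164), and that of C3ar1 without IM A, IM B, iMo A or iMo B (adjusted p = 0.0826 to 0.293). C3, the central component, went the other way at 43.1 and 77.1 TPM in IM against 145 and 151 TPM in iMo, without passing the test (1.20, adjusted p = 0.0576). Cfp, properdin, was at 222 and 133 TPM in IM against 275 and 175 TPM in iMo (0.21, adjusted p = 0.794). The count of lower genes ran from 4 to 9 over the alternatives.

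Of 20 chemokine ligands, 9 were called lower (45%, against 6.32% of all genes) and 0 higher (median -2.16). Pf4, platelet factor 4 and also a product of tissue macrophages, was at 921 and 594 TPM in IM against 2.10 and 1.51 TPM in iMo (log2 difference -8.20, SE 1.02, adjusted p = 7.68e-06). Cxcl13, which attracts B cells through CXCR5, was at 52.6 and 124 TPM in IM and listed at 0 in both iMo libraries (adjusted p = 7.40e-08). Ccl12, a relative of Ccl8, was at 55.9 and 46.4 TPM in IM and listed at 0 in iMo (adjusted p = 4.61e-06). Of 9 platelet and megakaryocyte genes, Pf4 included, 1 reached 5 TPM in IM A, 2 in IM B and 0 in either iMo library. At 0 were 2 of them in IM A, 4 in IM B, 5 in iMo A and 4 in iMo B. Ppbp was at 3.53 and 6.53 TPM in IM, and Gp9 and Gp6 at 0 in all 4 libraries. The part of platelets in the Pf4 level was not tested.

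Ccl7 was at 39.3 and 40.6 TPM in IM against 0 and 0.556 TPM in iMo (-5.18, adjusted p = 1.63e-06), while Ccl2, its neighbour and like it a CCR2 ligand, was at 69.3 and 65.9 TPM in IM against 61.2 and 42.4 TPM in iMo (-0.55, adjusted p = 0.798). Genes of the same stretch of chr11 therefore ranged from listed at 0 in iMo to like levels in both cell types. Ccl24, an eotaxin, was at 29.4 and 22.2 TPM in IM against 1.42 and 0.683 TPM in iMo (-3.86, adjusted p = 0.000126). Cxcl2, a neutrophil attractant, was at 33.2 and 23.4 TPM in IM against 1.71 and 0.410 TPM in iMo (-4.03, adjusted p = 7.83e-05). Cxcl16, the CXCR6 ligand, was at 50.97 and 55.6 TPM in IM against 2.91 and 6.28 TPM in iMo (-3.49, adjusted p = 0.000146), and Cxcl14 at 8.77 and 6.44 TPM in IM against 0 and 0.242 TPM in iMo (-3.08, adjusted p = 0.000123). The most abundant ligand was Ccl6 at 1979 and 1394 against 1497 and 1246 TPM (-0.43, adjusted p = 0.89), followed in iMo by Ccl9 at 459.6 and 281 TPM against 311 and 195 TPM in IM (0.40, adjusted p = 0.726). Over the alternatives, 8 to 13 ligands were called lower.

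Of 12 chemoattractant receptors, 4 were called lower (33.3%, against 6.32% of all genes) and 0 higher (median -1.54): C5ar1, C3ar1, Cxcr2 and Ccr7. Cxcr2, the interleukin 8 receptor typical of neutrophils, was at 76.3 and 47.8 TPM in IM against 0.605 and 0.291 TPM in iMo (log2 difference -5.56, SE 0.44, adjusted p = 9.58e-09). Ccr7, which guides dendritic cells to lymph nodes, was at 5.02 and 4.76 TPM in IM against 0.622 and 0.672 TPM in iMo (log2 difference -1.98, SE 0.48, adjusted p = 0.0159), and lost its call without IM A, IM B, iMo A or iMo B (adjusted p = 0.0753 to 0.115). The count was 2 when any 1 of the 4 libraries was left out. Ccr1 (-0.11, adjusted p = 0.991) was not called.

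Uptake receptors were lower in iMo in most cases. Of 22 scavenger, endocytic and efferocytosis genes, 12 were called lower (54.5%, against 6.32% of all genes) and 0 higher (median -2.06). Over the alternatives 10 to 14 were called lower. Cd209f, a C-type lectin, was at 57.4 and 51.7 TPM in IM and listed at 0 in iMo (adjusted p = 5.93e-09), and Cd209d, of the same cluster on chr8, at 30.3 and 21.96 TPM in IM against 0.718 and 3.10 TPM in iMo (-3.48, adjusted p = 1.01e-05). Mrc1, the mannose receptor, was at 76.96 and 63.9 TPM in IM against 5.33 and 4.26 TPM in iMo (log2 difference -3.77, SE 0.61, adjusted p = 0.000173), and at 123 to 235 TPM in AM. Cd163, the haemoglobin-haptoglobin receptor, was at 25.7 and 18.1 TPM in IM against 1.23 and 0.493 TPM in iMo (-3.77, adjusted p = 7.57e-07), and Stab1 at 21.3 and 16.1 TPM in IM against 1.55 and 1.11 TPM in iMo (-3.22, adjusted p = 0.000306). Cd36, which binds oxidised lipids, was at 72.1 and 97.5 TPM in IM against 3.48 and 8.77 TPM in iMo (-3.83, adjusted p = 0.000447).

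The receptors and bridging proteins that recognise phosphatidylserine on dying cells split. Gas6, a bridging ligand, was at 28.3 and 25.7 TPM in IM against 0 and 0.685 TPM in iMo (log2 difference -4.58, SE 0.50, adjusted p = 1.63e-06), and its receptors Mertk and Axl were both called lower, Axl at 22.8 and 28.3 TPM in IM against 7.67 and 7.28 TPM in iMo (log2 difference -1.79, SE 0.44, adjusted p = 0.0193). Pros1, the other bridging ligand, was at 16.4 and 12.5 TPM in IM against 11.2 and 7.80 TPM in iMo (-0.71, adjusted p = 0.656). Msr1, scavenger receptor A, was at 43.3 and 32.4 TPM in IM against 99.4 and 58.5 TPM in iMo (0.86, adjusted p = 0.499), the largest difference of the list in the iMo direction, and did not pass the test. Mertk and Axl were higher in AM than in either cell type, Mertk at 51.5 to 86.4 TPM and Axl at 152 to 367 TPM.

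Growth factors and matrix genes were called lower in 9 of 19 cases (47.4%, against 6.32% of all genes). In 1 case, Vcan, the call was higher (5.26%, against 0.739% of all genes), and the list median was -2.16. Sparc, a collagen-binding matrix protein, was at 75.6 and 47.99 TPM in IM against 0.467 and 2.69 TPM in iMo (log2 difference -4.86, SE 0.63, adjusted p = 1.37e-05). Igf1, insulin-like growth factor 1, was at 9.19 and 12.2 TPM in IM against 0.0860 and 0.124 TPM in iMo (log2 difference -3.54, SE 0.51, adjusted p = 5.48e-05), and Pdgfa at 22.6 and 11.6 TPM in IM against 0.607 and 0.437 TPM in iMo (log2 difference -3.65, SE 0.80, adjusted p = 0.00502). Timp2, an inhibitor of matrix metalloproteinases, was at 93.6 and 70.7 TPM in IM against 8.65 and 10.1 TPM in iMo (-3.14, adjusted p = 0.00108). The Pdgfa call was lost without IM A (adjusted p = 0.0932). The monocyte side of this list was Fn1, fibronectin, at 223 and 120.2 TPM in iMo against 78.9 and 41.8 TPM in IM (1.35, adjusted p = 0.197), Tgfbi at 541 and 410.2 TPM in iMo against 294 and 242 TPM in IM (0.67, adjusted p = 0.491) and Mmp8, a collagenase, at 124 and 57.5 TPM in iMo against 47.4 and 34.1 TPM in IM (0.91, adjusted p = 0.258). Endothelial and fibroblast cells express several of these genes too, and the marker sums of both were higher in IM, as given above; their part was not tested. Over the alternatives 4 to 12 genes were called lower.

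Of 12 genes of antigen presentation by MHC class II, 1 was called lower (8.33%, near the 6.32% of all genes) and 0 higher (median -1.34). The count was 0 without IM A, 0 without IM B, 0 without iMo A and 3 without iMo B, and ran from 0 to 7 over the alternatives, with the highest number from the 4 libraries alone with a term for the letter. In both cell types 11 of the 12 were higher in library B than in library A. H2-DMb2, the called gene, was at 5.86 and 6.02 TPM in IM against 0.787 and 1.13 TPM in iMo (log2 difference -1.98, SE 0.46, adjusted p = 0.0121). H2-Eb1, a chain of the class II molecule, was at 1258 and 1755 TPM in IM against 100 and 813 TPM in iMo (log2 difference -2.52, SE 0.84, adjusted p = 0.1), and Cd74, the invariant chain, at 4228 and 6989.8 TPM in IM against 929 and 3956 TPM in iMo (log2 difference -1.65, SE 0.87, adjusted p = 0.425). In each, iMo B lay between iMo A and the IM libraries. Ifi30, a lysosomal reductase of antigen processing, went the other way at 306 and 435 TPM in IM against 737 and 989 TPM in iMo (1.08, adjusted p = 0.112).

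Lipid handling genes were called lower in 5 of 13 cases (38.5%, against 6.32% of all genes) and higher in 0 (median -1.31). Pltp, phospholipid transfer protein, was at 364 and 293 TPM in IM against 41.8 and 56.5 TPM in iMo (log2 difference -2.87, SE 0.42, adjusted p = 6.72e-05). Abca1 and Abcg1, which export cholesterol, were at 8.27 and 7.64 TPM in IM against 1.32 and 0.649 TPM in iMo (-2.34, adjusted p = 0.000774) and 18.9 and 17.7 TPM in IM against 4.65 and 7.53 TPM in iMo (-1.62, adjusted p = 0.0261). Fabp4 was at 20.3 and 9.55 TPM in IM against 1.82 and 3.92 TPM in iMo (-2.15, adjusted p = 0.0319), and lost its call without IM A or iMo A (adjusted p = 0.363 to 0.402). The count was 3 without IM A and 3 without iMo A. Plin2, of lipid droplets, was at 119 and 115 against 128 and 110.3 TPM (-0.12, adjusted p = 0.985), with overlapping libraries.

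The gene of an iron exporter was also lower in iMo. Slc40a1, ferroportin, the only known cellular iron exporter, was at 26.4 and 22.4 TPM in IM against 0 and 0.131 TPM in iMo (log2 difference -4.72, SE 0.45, adjusted p = 2.07e-07). With Cd163 it made up the 2 genes called lower of 10 iron and heme genes (20%, against 6.32% of all genes, median -0.68). Fth1, ferritin heavy chain, was at 4769.7 and 3619 TPM in IM against 1950.2 and 2016 TPM in iMo (-1.21, adjusted p = 0.25), and Hmox1, heme oxygenase 1, at 19.9 and 11.6 TPM in IM against 19.1 and 12.9 TPM in iMo (-0.10, adjusted p = 0.98). Among 7 Fc receptors, 2 were called lower (28.6%): Fcrls and Fcgrt, the neonatal Fc receptor that recycles IgG and albumin, at 118 and 88.5 TPM in IM against 21.6 and 27.1 TPM in iMo (-2.18, adjusted p = 0.000963). The activating receptor Fcgr3 was at 345 and 411 against 433 and 475 TPM (0.12, adjusted p = 0.828), and Fcgr4 at 116 and 306 against 45.9 and 180.1 TPM (-1.19, adjusted p = 0.459).

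Of 23 lineage transcription factors, 2 were called lower (8.70%, near the 6.32% of all genes) and 0 higher (median -0.24). These were Id3, an inhibitor of E proteins, at 41.7 and 96.5 TPM in IM against 5.82 and 22.4 TPM in iMo (log2 difference -2.50, SE 0.62, adjusted p = 0.0164), and Bhlhe40 at 7.34 and 5.66 TPM in IM against 1.97 and 0.995 TPM in iMo (log2 difference -1.76, SE 0.37, adjusted p = 0.00441). The Id3 call was lost without IM B or iMo A (adjusted p = 0.231 to 0.438), and that of Bhlhe40 without IM A or iMo B (adjusted p = 0.0784 to 0.106). Spi1, which encodes PU.1, was at 495 and 478 against 585 and 594 TPM (0.13, adjusted p = 0.819), Irf8, which monocytes need to form, at 86.7 and 132 against 152 and 165 TPM (0.41, adjusted p = 0.583), and Klf4 at 37.6 and 36.7 against 42.4 and 30.8 TPM (-0.18, adjusted p = 0.98). Of 14 cytokine receptors, Csf3r, the G-CSF receptor, alone was called (7.14%), at 76.1 and 67.7 TPM in IM against 28.5 and 21.8 TPM in iMo (log2 difference -1.63, SE 0.41, adjusted p = 0.0232), and it lost its call when any 1 of the 4 libraries was left out (adjusted p = 0.0734 to 0.203).

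Adhesion genes were called lower in 2 of 13 cases (15.4%, against 6.32% of all genes). Itgax, which encodes CD11c, was at 9.90 and 10.9 TPM in IM against 0.921 and 2.10 TPM in iMo (log2 difference -2.37, SE 0.50, adjusted p = 0.00411), and lost its call without iMo A (adjusted p = 0.111). Cd9, a tetraspanin, was at 239 and 199 TPM in IM against 7.75 and 17.5 TPM in iMo (log2 difference -4.25, SE 0.71, adjusted p = 0.000256). Both were far higher in AM, where Itgax ran from 80.4 to 108 TPM and Cd9 from 959 to 4079 TPM. Itgb7 (1.28, adjusted p = 0.39) and Emb (1.12, adjusted p = 0.266) had the largest differences in the iMo direction and were not called.

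Gene families with many monocyte members split by gene. In the Ms4a family of membrane proteins, Ms4a7 was called lower at 60.2 and 57.9 TPM in IM against 9.24 and 5.32 TPM in iMo (log2 difference -3.04, SE 0.56, adjusted p = 0.000768), while the other 7 tested lay above the median gene, such as Ms4a6c at 579.9 and 445 TPM in iMo against 206 and 279.7 TPM in IM (0.93, adjusted p = 0.17) and Ms4a8a at 128 and 96.3 TPM in iMo against 31.9 and 42.1 TPM in IM (1.43, adjusted p = 0.161), without passing the test. In the S100 family of calcium-binding proteins, S100a8 and S100a9 were called lower, and S100a4 was at 3107 and 3126 TPM in iMo against 1091 and 854 TPM in IM (1.54, adjusted p = 0.451). Cd63, a tetraspanin of lysosomes and granules, was the 1 of 20 lysosomal genes called, at 37.6 and 23.7 TPM in IM and listed at 0 in both iMo libraries (adjusted p = 1.28e-06). That is 5% of the list, below the 6.32% of all genes called lower. The cathepsins were not called, with Ctss at 1994 and 2405 against 2312 and 2628 TPM (0.02, adjusted p = 0.901) and Ctsd at 796 and 613 against 374 and 309 TPM (-1.18, adjusted p = 0.431).

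Of 17 LPS sensing and inflammatory genes, 2 were called lower (11.8%, against 6.32% of all genes), Ptgs2, cyclooxygenase 2, at 3.08 and 1.71 TPM in IM against 0.689 and 0.298 TPM in iMo (log2 difference -1.31, SE 0.34, adjusted p = 0.0326), and Nfkbiz at 17.4 and 18.5 TPM in IM against 6.55 and 8.39 TPM in iMo (log2 difference -1.32, SE 0.35, adjusted p = 0.0447). The count was 0 without IM A, 1 without IM B, 0 without iMo A and 0 without iMo B. Tlr4, the LPS receptor, was at 5.50 and 6.91 against 6.61 and 5.04 TPM (-0.23, adjusted p = 0.959), and its partner Ly96, MD-2, at 35.7 and 46.2 against 35.99 and 34.1 TPM (-0.36, adjusted p = 0.921). Il1b, interleukin 1 beta, was at 527 and 519.6 TPM in IM against 83.3 and 94.6 TPM in iMo, and did not pass the test (log2 difference -2.69, SE 0.84, adjusted p = 0.0729) although its libraries were far apart. Neutrophils express Il1b too, and their markers were higher in IM; their part was not tested. Tnf was at 2.77 and 6.05 against 2.60 and 5.63 TPM (-0.22, adjusted p = 0.958).

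Of 18 immediate early genes, 3 were called lower (16.7%, against 6.32% of all genes). They were Ier3 at 21.01 and 12.95 against 3.39 and 3.25 TPM (-2.17, adjusted p = 0.00467), Egr1 at 28.01 and 18.2 against 4.39 and 9.93 TPM (-1.76, adjusted p = 0.021) and Jun at 47.5 and 55.8 against 12.9 and 22.7 TPM (-1.68, adjusted p = 0.0233), IM given first. The count was 0 without IM A and 1 without iMo A. Fos, which rises within minutes of handling cells, was at 228 and 161 against 219 and 173 TPM (-0.13, adjusted p = 0.993), and of 10 heat shock genes 0 were called by limma and 0 had an unadjusted p under 0.05 (median -0.12). Among 22 cell cycle genes, Dna2 was called higher and Top2a, at 3.67 and 4.30 against 0.592 and 1.11 TPM (-1.59, adjusted p = 0.00353), and Rrm2, at 2.10 and 2.43 against 0.565 and 0.204 TPM (-1.40, adjusted p = 0.0347), lower; Mki67, the proliferation marker, was at 1.51 and 2.62 against 2.01 and 1.40 TPM (-0.31, adjusted p = 0.876). All of these but Dna2 were under 5 TPM in each of the 4 libraries. The 2 lower genes are 9.09% of this list, near the 6.32% of all genes. The count of lower cell cycle genes was 1 without IM B and 0 without iMo A.

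Genes of energy and protein production lay slightly to the iMo side. Of 20 respiratory chain genes limma called 0, and 1 had an unadjusted p under 0.05, while 19 lay above the median gene (median 0.26), with Atp5a1 furthest at 213 and 182 TPM in iMo against 90.3 and 97.7 TPM in IM (0.91, adjusted p = 0.15). Of 19 ribosomal protein genes 0 were called and 1 had an unadjusted p under 0.05 (median 0.37). The shift differed by letter: ribosomal protein genes lay above the median gene in 11 cases within A and 18 within B. Respiratory chain genes did so in 14 cases within A and 19 within B. Of 14 glycolysis genes, Eno1, an enolase, was called higher at 55.7 and 55.4 TPM in iMo against 25.5 and 21.6 TPM in IM (log2 difference 1.06, SE 0.32, adjusted p = 0.0168); it has a near-identical copy, and lost its call when any 1 of the 4 libraries was left out (adjusted p = 0.0652 to 0.150).

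Of 13 neutrophil markers, 9 were called lower in iMo and 0 higher (median -2.54), and 7 to 11 over the alternatives. The 9 were 69.2% of the list, against 6.32% of all genes called lower. S100a9, a calprotectin subunit, was at 10729.5 and 5159 TPM in IM against 4.72 and 13.6 TPM in iMo (log2 difference -9.81, SE 0.79, adjusted p = 1.04e-08). S100a8, its partner, was at 10322 and 5399.7 TPM in IM against 53.9 and 39.9 TPM in iMo (log2 difference -7.45, SE 0.58, adjusted p = 9.58e-09). Retnlg was at 1219 and 461 TPM in IM against 3.06 and 0.733 TPM in iMo (log2 difference -8.29, SE 0.66, adjusted p = 9.58e-09). IM A held more than IM B of each of these 3 genes. Mmp9, gelatinase B, was at 102 and 65.5 TPM in IM against 0.194 and 0.419 TPM in iMo (log2 difference -6.14, SE 0.44, adjusted p = 5.93e-09), and Ly6g, the marker by which mouse neutrophils are sorted, at 10.8 and 4.48 TPM in IM against 1.34 and 0 TPM in iMo (log2 difference -2.54, SE 0.44, adjusted p = 0.000528). Stfa2l1, a stefin, was at 59.5 and 45.9 TPM in IM and listed at 0 in iMo (adjusted p = 8.39e-08). Genes of specific granules were near 0 in all 4 libraries: Ngp at 1.32 and 2.03 against 0 and 0 TPM, Ltf at 1.40 and 0.215 against 0.225 and 0.162 TPM and Camp at 0 and 0 against 0 and 0.744 TPM.

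All 10 endothelial markers were called lower in iMo, against 6.32% of all genes (median -3.46), and 7 to 10 over the alternatives. Cldn5, a tight junction protein, was at 186 and 199 TPM in IM against 0.868 and 13.4 TPM in iMo (log2 difference -5.36, SE 0.84, adjusted p = 0.000112), and Egfl7 at 76.8 and 112 TPM in IM against 1.34 and 3.21 TPM in iMo (log2 difference -5.05, SE 0.66, adjusted p = 1.49e-05). Ramp2 was at 107 and 173 TPM in IM against 1.42 and 12.2 TPM in iMo (-4.75, adjusted p = 0.00212), and Tmem100 at 84.7 and 116 TPM in IM against 0.697 and 8.78 TPM in iMo (-4.77, adjusted p = 6.81e-05). Within each cell type library B held more of all 10 than library A. Ramp2 lost its call without iMo A (adjusted p = 0.121).

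Markers of other lung cells were also lower in iMo. The share of tested members called lower was 71.4% for epithelial and 75% for fibroblast and smooth muscle markers. It was 50% for dendritic cell markers and 6.32% for all genes. Of 7 epithelial markers tested, 5 were called lower (median -3.09), among them Sftpc, surfactant protein C of type II cells, at 479 and 189 TPM in IM against 10.8 and 13.9 TPM in iMo (-4.66, adjusted p = 0.00368), and the count was 3 without IM A. Sftpc lost its call without IM A (adjusted p = 0.086). Of 4 fibroblast and smooth muscle markers tested, 3 were called lower: Mgp at 306 and 348 TPM in IM against 7.02 and 9.39 TPM in iMo (-5.31, adjusted p = 7.41e-05), Inmt at 203 and 178 TPM in IM against 4.21 and 9.11 TPM in iMo (-4.87, adjusted p = 0.000197) and Col3a1 at 8.97 and 6.06 TPM in IM against 0.111 and 0 TPM in iMo (-3.14, adjusted p = 0.000236). Dendritic cell markers had 3 of 6 called lower, with Siglech at 6.45 and 7.11 TPM in IM against 0 and 0.535 TPM in iMo (-2.80, adjusted p = 5.22e-05) and Fscn1 at 4.86 and 3.97 TPM in IM against 0.461 and 0.166 TPM in iMo (-2.19, adjusted p = 0.000746), while Cd209a, a marker of monocyte-derived dendritic cells, was at 48.98 and 21.1 against 63.2 and 20.4 TPM (0.01, adjusted p = 0.944).

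Of 11 lymphocyte and red cell markers tested, 1 was called lower, where 6.32% of all genes were. T and NK cell markers had 0 of 3 called by limma and 3 of 3 at an unadjusted p under 0.05, all lower in iMo, with Gzma, granzyme A, at 26.97 and 45.6 TPM in IM against 10.5 and 12.1 TPM in iMo (-1.70, adjusted p = 0.205). B cell markers had 1 of 3, Ms4a1, which encodes CD20, at 6.68 and 10.6 TPM in IM against 1.20 and 1.51 TPM in iMo (-2.15, adjusted p = 0.0117), a call lost without IM B or iMo A (adjusted p = 0.113 to 0.142). Erythroid markers had 0 of 5, and 0 at an unadjusted p under 0.05, with levels that summed to 526 and 54.1 TPM in IM and to 104 and 41.5 TPM in iMo, so that IM A stood apart. No eosinophil, basophil or mast cell marker passed the filter.

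Retnla, or Fizz1, a product of alternatively activated macrophages and also of epithelium, was among the largest differences outside these lists, at 3593 and 942 TPM in IM against 13.5 and 8.20 TPM in iMo (log2 difference -7.46, SE 0.86, adjusted p = 3.08e-06). IM A lay above IM B, and both were far above iMo.

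Alveolar macrophage markers were called lower in iMo in 9 of 16 cases (56.2%, against 6.32% of all genes) and higher in 0 (median -2.24). The levels in IM were far below those of AM: Car4, a carbonic anhydrase, was at 28.3 and 57.7 TPM in IM against 0.950 and 5.82 TPM in iMo (-3.65, adjusted p = 0.00264) and at 245 to 678 TPM in AM. Fabp1 was at 10.5 and 12.7 TPM in IM and listed at 0 in iMo (adjusted p = 0.000862), and at 170.4 to 527 TPM in AM. Chil3, the chitinase-like Ym1, went the other way at 912 and 984 TPM in iMo against 269 and 534 TPM in IM (1.17, adjusted p = 0.267), and was at 3708 to 9771 TPM in AM. The count was 5 without IM A, 5 without IM B and 2 without iMo A, and Car4 lost its call without IM B or iMo A (adjusted p = 0.0622 to 0.135).

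AM served as a further reference for each called gene. Of the 565 genes lower in iMo, 369 (65.3%) had all 4 AM libraries below both IM libraries, against 23.5% of all genes tested, and 110 (19.5%) had all 4 above both, against 18% of all genes. Set against iMo, all AM libraries lay below both iMo libraries in 58 (10.3%, against 27.8% of all genes) and above both in 248 (43.9%, against 19.2%). Of the 66 genes higher in iMo, 47 had all AM libraries below both iMo libraries (71.2%) and 0 above both. Set against IM, 20 had all AM libraries below (30.3%) and 22 above both (33.3%). The calls used the same IM and iMo libraries. Genes called lower had high IM and low iMo values, so AM below IM and AM above iMo are favoured by the choice of genes. Among the higher genes the choice favours AM below iMo and AM above IM. The gaps to the shares of all genes are therefore no finding about AM alone. These counts compare ranges and carry no test.

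The A and B libraries of a cell type differed from each other, and some of the genes were shared by both cell types. In IM 79 genes were at least 2 log2 units apart between A and B, 48 of them higher in B, and in iMo 68 were, 64 of them higher in B. Of these, 34 were apart in both cell types, 43.0% of the IM genes and 50% of the iMo genes, with 33 higher in B in both, 1 lower in B in both (Thbs1, thrombospondin 1) and 0 in opposite directions.

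Iigp1, an interferon-inducible GTPase, was at 1.71 and 71.2 TPM in IM A and B and at 0.197 and 62.01 TPM in iMo A and B. Gbp2, a guanylate-binding protein, was at 24.9 and 299.8 and at 18.3 and 330.3 TPM in the same order. Irf1, a transcription factor that interferon gamma induces, was at 51.9 and 233 and at 36.3 and 245 TPM. Library A was low and library B high in both cell types. Serpina3g, a serine protease inhibitor, was at 1.09 and 67.4 and at 1.17 and 83.7 TPM, and Cxcl10, a CXCR3 ligand, at 6.95 and 68.05 and at 6.16 and 102 TPM.

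All 14 interferon-gamma-associated genes tested were higher in B than in A in both cell types, with a median B minus A of 2.28 in IM and 1.76 in iMo. Between the cell types limma called 0 of the 14, and 0 had an unadjusted p under 0.05 (median -0.14), and iMo minus IM had a median of 0.23 within A and -0.10 within B. Without IM B, Gbp5 was called higher in iMo (adjusted p = 0.0240), and without iMo B, Gbp4 was called lower (adjusted p = 0.0348). Of 23 type I interferon-stimulated genes, 0 were called between the cell types and 4 had an unadjusted p under 0.05, all higher in iMo (median 0.21), and 18 were higher in B in both, by a median of 1.04 in IM and 0.45 in iMo. MHC class II genes were higher in B by a median of 0.52 in IM and 1.09 in iMo. The mean log2(TPM+1) of the 14 interferon-gamma-associated genes in AM was 2.95 in library A, 2.77 in C, 2.95 in D and 2.27 in the library of the other title code. What the letters stand for is not given in the sources used here.

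**Figure D4:**
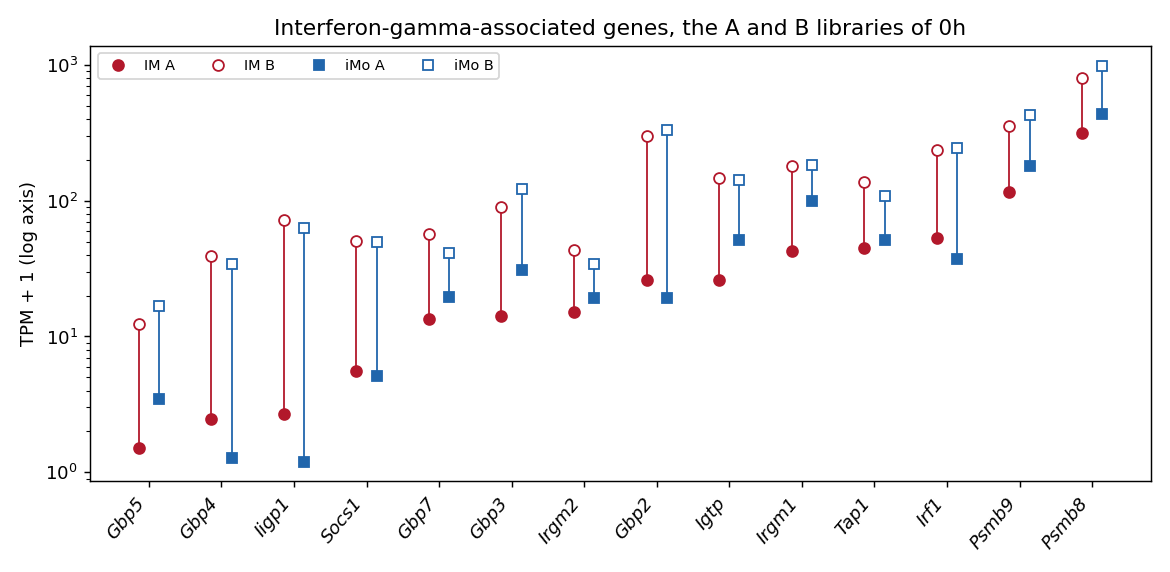
Levels of the 14 interferon-gamma-associated genes at 0h, as TPM plus 1 on a log axis, with circles for IM and squares for iMo, filled for A and open for B, and a line joining A and B of a cell type. Library B lies above library A for every gene in both cell types, such as Iigp1 at 71.2 against 1.71 TPM in IM and 62.0 against 0.197 TPM in iMo.

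The same contrast was read after LPS in other libraries, which share the estimate of the spread. No library after intraperitoneal LPS has the title code of the 0h comparison, so that time and code cannot be told apart. At 2 and 6h 1 of the 2 IM libraries also has another code than the other IM library and both iMo libraries, so that cell type and code are not balanced there, as they are at 0 and 20h. At 2h, 79 genes were called higher in iMo (0.884%) and 140 lower (1.57%). At 6h, 82 were higher (0.918%) and 205 lower (2.29%). At 20h, 4 were higher (0.0448%) and 108 lower (1.21%). Single libraries moved these totals: at 2h, 219 in all were 61 without IM A and 343 without iMo B, at 6h 287 were 95 without iMo B, and at 20h 112 were 39 without iMo A.

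Of the 565 genes lower in iMo at 0h, 57 were called lower at 2h, 73 at 6h and 48 at 20h, and 5 were called higher at 6h. Their difference lay below that of the median gene in 83.0% at 2h, 65.8% at 6h and 56.8% at 20h. Genes called at all 3 later times numbered 32, and 477 were called lower at none. Of the 66 genes higher at 0h, 4, 2 and 0 were called higher at 2, 6 and 20h, and 2 were called lower at 20h. The 565 and the 66 were picked by their difference at 0h, and the next test uses that same difference. Their counts in it depend on this choice, and no conclusion on LPS is drawn from them. A moderated F test of the difference at 0h against those at 2, 6 and 20h called 335 genes (3.75%), 281 of the 565 and 5 of the 66 among them. Without iMo A at 0h it called 111, without IM A 210 and without IM B 219.

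The lists were followed to the later times, without a test between lists. Members called at 0h were picked by the 0h difference that the F test also uses, so their F test counts depend on that choice. Of the 18 interstitial macrophage markers lower in iMo at 0h, 1 was called lower at 2h, 1 at 6h and 1 at 20h, in each case Cxcl13, and the F test called 14. The median of the 26 went from -3.77 at 0h to -0.82, -0.72 and -0.23. Of the 9 neutrophil markers lower at 0h, 7, 9 and 8 were called lower later, and the F test called 4. Their list median was -2.54 at 0h and -4.50, -3.92 and -2.74 after it. Of the 10 endothelial markers 0 were called later, and the F test called 9, with medians of 0.06, -0.15 and -0.12.

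In IM, C1qa went from 1077 and 973 TPM at 0h to 20.7 and 59.03 at 2h, 18.1 and 33.9 at 6h and 328 and 324 at 20h. In iMo it went from 2.85 and 2.05 to 6.84 and 0.450, 7.84 and 1.69 and 249 and 252 TPM. The 2 cell types were thus near each other at 20h, where the difference was -0.29, adjusted p = 1.000, and the F test gave an adjusted p = 0.021. Ccl8 in IM was 308 and 231 TPM at 0h, 4.75 and 1.23 at 2h, 0.663 and 6.58 at 6h and 3.03 and 0.868 at 20h (F test, adjusted p = 0.000217). Folr2 in IM was 186 and 185, 1.02 and 6.96, 1.25 and 1.34 and 26.4 and 21.3 TPM (F test, adjusted p = 0.00181). Cd209f was at 57.4 and 51.7 TPM at 0h, 0.596 and 0 at 2h, and listed at 0 in IM at 6 and 20h (adjusted p = 1.58e-06).

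S100a9 in IM was 10729.5 and 5159 TPM at 0h, 8745 and 11003 at 2h, 24856 and 7231 at 6h and 16043 and 12589 at 20h. In iMo it was 4.72 and 13.6, 45.4 and 121, 969 and 512 and 1121 and 1196 TPM. Every IM library was above every iMo library at each time. Genes lower in iMo at all 4 times that sat on no list numbered 24, such as Asprv1 at 66.2 and 31.5 against 0 and 0.867 TPM at 0h, Hdc, histidine decarboxylase, at 40.5 and 28.5 against 1.80 and 1.48 TPM, and Lrg1 at 135 and 57.8 against 6.82 and 1.31 TPM, IM given first.

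Prtn3 kept its direction. It was at 6.89 and 4.53 TPM in iMo against 1.59 and 0.647 TPM in IM at 2h (1.28, adjusted p = 0.036). At 6h it was at 44.7 and 33.4 against 5.22 and 3.57 TPM (2.79, adjusted p = 0.00017), and at 20h at 52.9 and 19.3 against 12.7 and 14.1 TPM (1.29, adjusted p = 0.303). All iMo libraries lay above all IM libraries at each time. Cd177 did not: at 20h it was at 12.7 and 14.6 TPM in iMo against 76.8 and 38.2 TPM in IM (-1.83, adjusted p = 0.00414), and the F test gave an adjusted p = 0.000625. Vcan was not called at 2h (0.94, adjusted p = 0.131), 6h (0.93, adjusted p = 0.323) or 20h (0.68, adjusted p = 0.99), and the F test gave an adjusted p = 0.439.

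**Figure D5:**
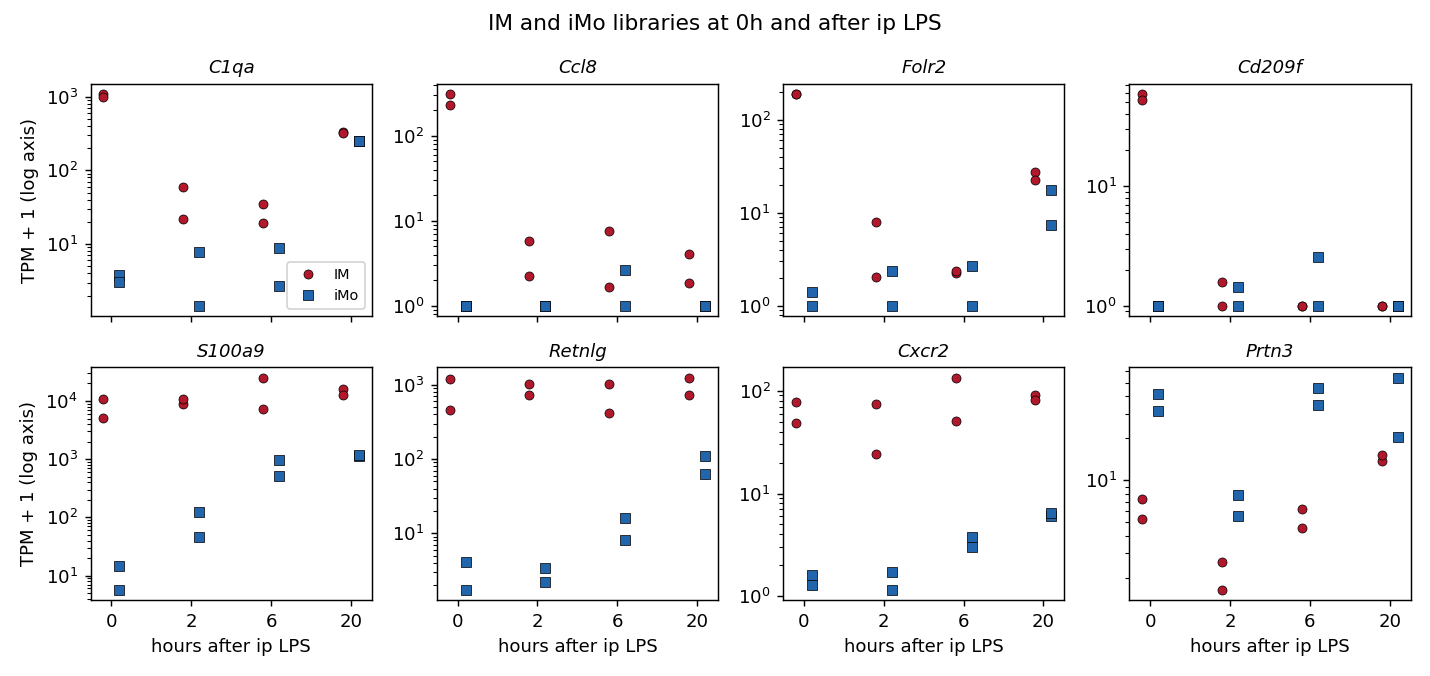
Levels of 8 genes as TPM plus 1 on a log axis, with the hours after intraperitoneal LPS (0, 2, 6 and 20) on the x axis, evenly spaced, and 1 symbol for each library of IM (red circles) and iMo (blue squares). C1qa is at 1077 and 973 TPM in IM at 0h and similar in both cell types at 20h, while S100a9, Retnlg and Cxcr2 are higher in IM and Prtn3 is higher in iMo at each time.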

How the data were processed

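RNA of sorted lung IM, iMo and AM was measured as TPM, computed and deposited by the authors for 23594 gene rows. STAR, HOMER and mm10 are named per the submitters' processing notes; for versions and annotation, nothing is given in the sources used here. TPM keeps no read depth, so the number of libraries limits precision. Row names did not match the values in the 18 nasal LPS columns (Pearson r of log2(TPM+1) with the 0h columns 0.00970 to 0.0250; Actb at a median of 0 against 3182 TPM), which were not used.

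The 8937 genes that reached 5 TPM in 2 or more of the 27 libraries of 0h and intraperitoneal LPS were tested as log2(TPM+1). In R 4.3.3, limma 3.58.1 fitted 1 coefficient for each of 12 groups, with empirical Bayes moderation and a mean-variance trend. The contrast was iMo minus IM at 0h, repeated at 2, 6 and 20h, with a moderated F test of the 0h difference against the later ones. The script was tested on simulated data. An exact permutation test of 2 against 2 libraries cannot go below p = 0.333 (two-sided) and was not used.

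Members and the 41 gene lists were chosen with earlier results of these data known, and list counts are descriptions. Genes named were the 4 markers and the 15 largest differences in each direction. The latter are among called genes whose libraries do not overlap and whose higher group has a mean of at least 10 TPM, passing over gene models. Also named were up to 4 called members of each list, all genes of sorting or shared by phagocytes, and other list members as values. Some list members are not reported here. Iigp1, Gbp2, Irf1, Cxcl10, Serpina3g, Asprv1, Hdc and Lrg1 illustrate letter or time patterns and were chosen after their values were seen. Counts of genes with near-identical copies (Eno1, Gapdh, Hbb and Hba genes, H2-Q genes) are uncertain. Alternatives were 2 other pseudocounts, no filter and a stricter one, 2 other scalings, fewer libraries, other variance models, a replicate block, the title code as a term, and each library left out.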

Additional observations from a re-analysis of the deposited data

Results flagged for a closer look

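For 15 of the named genes the difference between iMo and IM at 0h was itself different from the differences at 2, 6 and 20h after LPS by limma's moderated F test, adjusted over 8937 genes. Title codes change with time in these groups, so time and code cannot be told apart. These genes were named for their 0h difference, which the F test also uses. Genes of macrophages were Cd209f (adjusted p = 1.58e-06), Ccl8 (0.000217), Fcrls (0.000217), Folr2 (0.00181), Pf4 (0.0135), C1qa (0.0210), Retnla (0.0244) and Cxcl13 (0.0285), each lower in iMo at 0h. Genes of neutrophils were S100a9 (0.00399), Retnlg (0.00527), Mmp9 (0.00857) and S100a8 (0.0116), also lower in iMo at 0h. Genes higher in iMo at 0h were Cd177 (0.000625), which was called lower in iMo at 20h, Cers6 (0.0122) and Crybb1 (0.0480).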

How the results depend on the processing

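No named gene reversed direction in the alternatives run, and 46 of the 84 named genes that were called at 0h kept their call in every alternative in which they were tested, all 15 largest differences lower in iMo among them; 35 of the 46 were tested in all 18 and 11 in 17, since the 20 TPM filter removed them. Between iMo and IM at 0h, 631 genes were called (66 higher, 565 lower). Without a filter on low values 975 were called (928 lower), with a filter of 20 TPM 244 (16 higher, 228 lower), and with array weights 1254 (412 higher). The higher genes numbered 42 with a pseudocount of 0.25 TPM, 123 with 5 TPM, 315 with quantile normalization, 176 with the 4 libraries alone and 189 with the title code as a term. Leaving out each library in turn gave 378 to 538 genes in all, 15 to 50 higher and 363 to 508 lower; the lone library left is then assumed to vary like the other groups. Rescaling without Rn45s and Lars2 moved the median difference of all genes from 0.15 to -0.03. The F test called 335 genes; 155 with a pseudocount of 0.25 TPM, 84 with the 20 TPM filter, 503 with quantile normalization, 528 after rescaling, 591 with array weights and 111 to 288 with a library left out. At 2h, 219 genes became 110 with the 20 TPM filter, 337 with quantile normalization, 1007 after rescaling, 61 with array weights and 61 to 343 with a library left out. At 6h, 287 became 168, 722 and 1185 under the first 3 of these and 95 to 235 with a library left out. At 20h, 112 became 67 with the 20 TPM filter, 384 with array weights and 39 to 55 with a library left out. Fewer genes were tested under the stricter filter and fewer samples without a library; the cause of the other changes was not tested.

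The labels do not say that equal letters mark shared animals or days. Deviations from the group means correlated at 0.308 across genes between the same letters of IM and iMo, a single value from 2 pairs, and at 0.018 and -0.056 with AM A. With letter and code together as a replicate block over the 27 libraries, 763 genes were called at 0h (150 higher, 613 lower). A replicate block on the 4 libraries alone gave 1140 (445 higher, 695 lower). Under the block over the 27 libraries, Ly6c2 (adjusted p = 0.0164) and Ccr2 (adjusted p = 0.00973) were called higher in iMo. The same block called 407 genes by the F test, and 221, 374 and 155 at 2, 6 and 20h.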
